A study of Mus musculus with 6 samples.

Results

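The genes described here are the interferon-stimulated genes and interferon regulatory factors (IRFs) of the acetaminophen-injured mouse liver. They were chosen by gene symbol alone, from the Ifit, Ifi, Ifitm, Isg, Oas, Gbp, Irf, Irgm and Mx families with a set of single genes that includes Iigp1, Igtp, Rsad2, Usp18, Stat2, Ddx58, Dhx58, Ifih1 and Bst2. The choice gave 83 of the 28476 genes in the deposited table. RNA was sequenced from C57BL/6 mouse livers in 3 Flox and 3 Nedd4 HepKO libraries. Every mouse, controls included, had been fasted overnight and given 300 mg/kg acetaminophen (APAP) into the peritoneum 24 h before collection. No liver without the drug is analysed here, and each difference is between genotypes under the drug. The labels name Nedd4, which encodes the ubiquitin ligase NEDD4-1, as the gene deleted in HepKO mice. They give no Cre driver, sex or age, and they leave unstated whether a library stands for a single animal. The p-values therefore cover the spread among these libraries, which may be technical.

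Interferons are secreted proteins that cells release on sensing foreign or misplaced nucleic acid. Type I and type III interferons signal through the kinases JAK1 and TYK2 to a complex that contains STAT2 and IRF9 and binds interferon-stimulated response elements. Interferon gamma signals through JAK1 and JAK2 to factors that bind gamma-activated sites. In liver, hepatocytes, Kupffer cells and endothelial cells can all respond, and the induced proteins limit infection, degrade RNA, coat pathogen vacuoles and feed back on the pathway itself.

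Nedd4 was lower in all HepKO livers, with 2.18, 2.59 and 2.23 FPKM (fragments per kilobase of transcript, scaled to library size) in the Flox livers against 0.618, 0.666 and 0.565 FPKM. Its log2 fold change was -1.04 (SE 0.10, limma adjusted p = 0.0015). An exact two-sided permutation test gave p = 0.10, the smallest that 3 against 3 libraries allow. Libraries summed to 456176 to 496303 FPKM, and depth is unknown. Mitochondrial transcripts took 24.6% of HepKO replicate 1 and 16.7% to 18.3% of the other libraries. The hepatocyte marker Alb was at 22230 to 29075 FPKM in these livers. Of 10 hepatocyte markers, 3 fell (Cps1, Hnf4a and Asgr1), 0 rose and 7 did not pass. In whole liver, fewer cells of a type and less RNA per cell cannot be told apart.

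Interferon genes moved in both directions. Of the 83, 53 averaged 0.5 FPKM or more across the 6 libraries and were tested. Among these 53, 8 fell in HepKO livers (among them Ddx58, Bst2, Irgm2, Igtp, Ifi47, Ifi27 and Ifi35), 5 rose (Ifitm6, Ifitm1, Oasl1, Rsad2 and Ifi27l2b) and 40 did not pass (limma on log2(FPKM + 1), Benjamini-Hochberg adjusted p below 0.05 over all tested genes). Those 13 genes were 24.5% of the tested members, against 20.3% of all 12712 tested genes, so the share called was close to that of the whole liver transcriptome. By direction, 15.1% of tested members fell against 11.0% of all tested genes, and 9.43% rose against 9.33%. The median log2 fold change was -0.22 for tested members and -0.06 for all tested genes. A value below 0 was found for 31 of the 53 members (58.5%), against 56.6% of all tested genes.

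Group values that did not overlap were more frequent than calls. All HepKO libraries lay below all Flox libraries for 19 tested members (35.8%, against 25.2% of all tested genes), and above them for 7 (13.2%, against 17.2%). Of these, 11 of the 19 and 2 of the 7 did not pass the test. The number called depended on single libraries. With Flox replicates 1, 2 and 3 left out in turn, 13, 2 and 4 members were called lower, and with HepKO replicates 1, 2 and 3 left out, 1, 1 and 6. The corresponding numbers of higher members were 5, 3, 5, 4, 2 and 3. The share of all tested genes called fell in each of those comparisons, to between 10.3% and 17.95%. The share of tested members called rose to 34.0% without Flox replicate 1. It fell to between 5.66% and 17.0% without any other library. Called in every comparison that left out a library were 3 members: Irgm2, Oasl1 and Ifitm6. With no abundance filter, the calls of Rsad2 (adjusted p = 0.074), Ifi47 (0.11), Bst2 (0.064), Ifi27 (0.10), Ifi27l2b (0.080) and Ddx58 (0.081) ended.

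**Figure D1:**
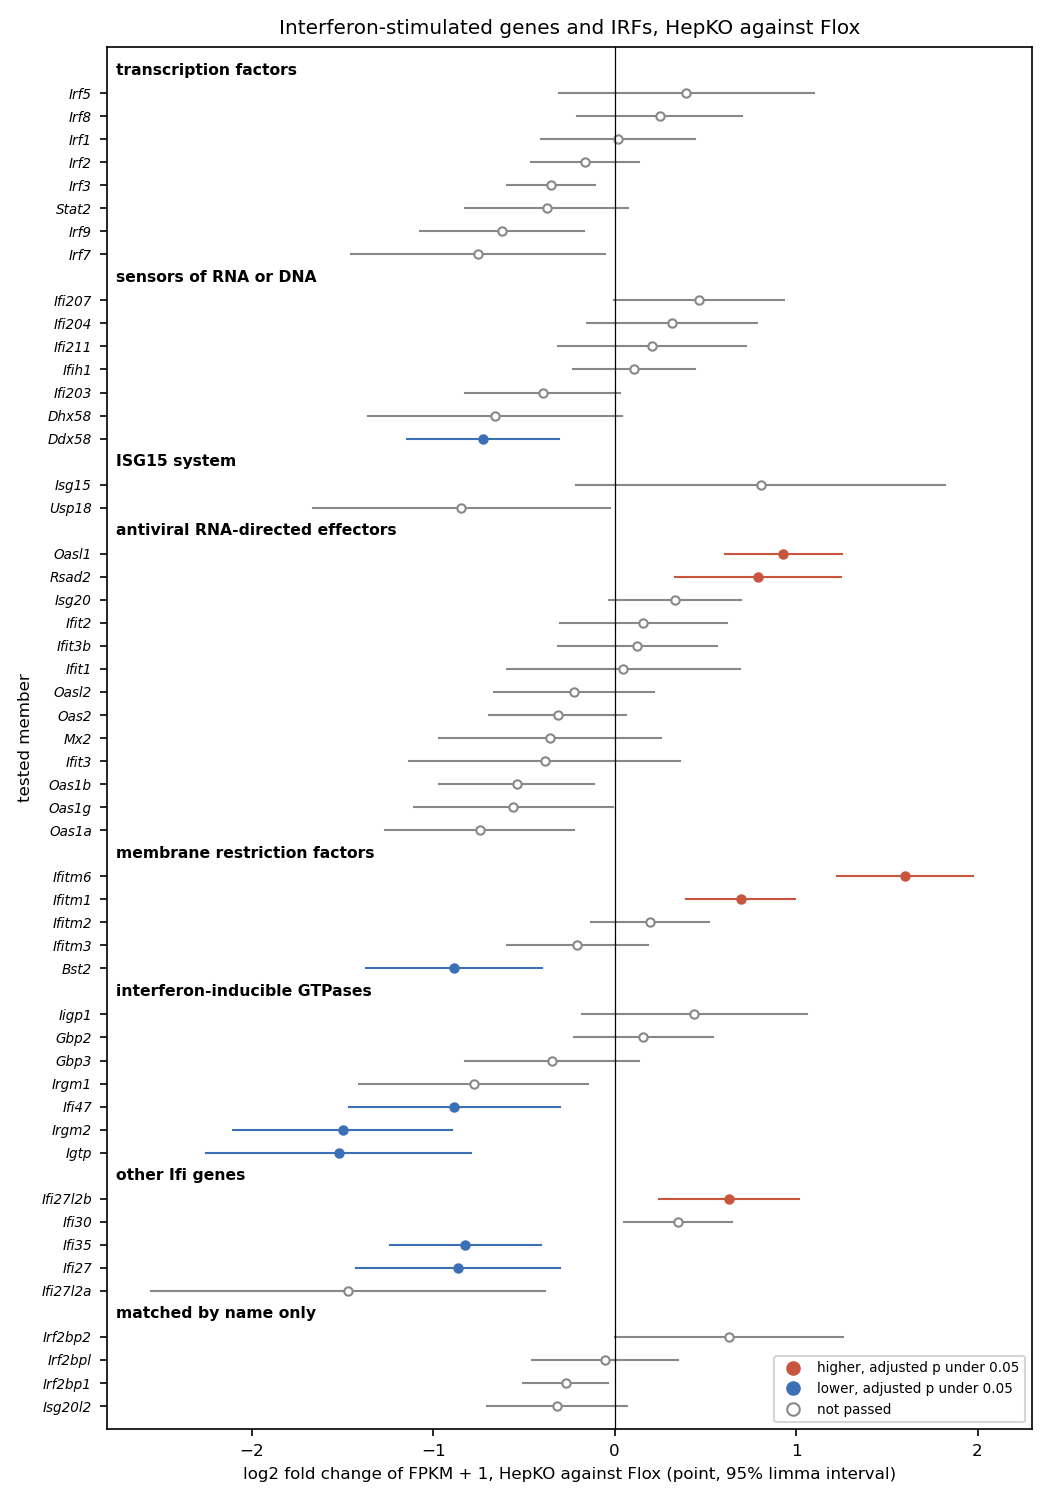
Log2 fold change of FPKM + 1 (x axis, HepKO against Flox, point with 95% limma interval) for 51 of the 53 tested members (y axis), in blocks by role. Filled points passed at adjusted p 0.05, 7 lower and 5 higher, and open points did not.

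Levels, which FPKM puts on a per-length scale, spanned a wide range. The most abundant members were the membrane genes Ifitm3 and Ifitm2, with means of 378 and 366 FPKM. Together they held 60.1% to 70.6% of the summed FPKM of all members. In all, 13 members averaged at least 10 FPKM, 33 averaged 1 to 10 and 37 under 1. Without Ifitm2 and Ifitm3, the members summed to 322, 393 and 533 FPKM in Flox replicates 1, 2 and 3 and to 328, 346 and 375 FPKM in HepKO replicates 1, 2 and 3. The Flox sums spread more widely than the HepKO sums and their range encloses the latter.

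The transcription factors of the pathway that are described here did not pass the test. Irf9, a DNA-binding partner of STAT2, had 5.06, 4.99 and 8.43 FPKM in Flox and 3.79, 3.54 and 3.32 FPKM in HepKO livers (log2 fold change -0.62, adjusted p = 0.061). Irf7, which amplifies type I interferon production, had 3.90, 5.80 and 10.5 FPKM in Flox and 3.18, 3.78 and 2.99 FPKM in HepKO livers (-0.75, adjusted p = 0.12). Neither gene's groups overlapped, and Flox replicate 3 was highest for both. Irf7 passed without Flox replicate 1 (adjusted p = 0.039). Stat2 had 4.94, 7.70 and 6.22 FPKM in Flox and 4.16, 3.88 and 5.82 FPKM in HepKO livers, with overlap (-0.37, adjusted p = 0.21).

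Irf3, the factor activated by phosphorylation downstream of nucleic acid sensors, had the highest mean of the IRFs. It had 12.1, 13.4 and 13.7 FPKM in Flox and 9.40, 9.95 and 10.8 FPKM in HepKO livers, with no overlap (log2 fold change -0.35, SE 0.10, adjusted p = 0.053). It passed narrowly with a pseudocount of 5 (adjusted p = 0.049) or with a minimum mean of 1 FPKM (0.0496). Irf1, itself an interferon-gamma target, had the same mean of 6.25 FPKM in both groups (log2 fold change 0.02, 95% interval -0.41 to 0.44, adjusted p = 0.96). Irf2 had a log2 fold change of -0.16 (adjusted p = 0.39). The myeloid factors Irf5 and Irf8 had 0.40 and 0.25 (adjusted p = 0.38 and 0.39), and both groups overlapped for each. Irf4, a lymphoid factor, was at 0.023 FPKM or less in every library. Irf3, Irf5, Irf7 and Irf9 overlap other expressed genes on the opposite or the same strand, so their levels may include reads of those genes.

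Sensors of nucleic acid held 1 lower gene. Of 14 members, 7 were tested, 1 fell, 0 rose and 6 did not pass (median log2 fold change 0.11). The shares of all tested genes were 11.0% lower and 9.33% higher. Ddx58, which encodes the RNA sensor RIG-I (chromosome 4, 40203773 to 40239825), had 1.87, 2.62 and 3.42 FPKM in Flox livers and 1.38, 1.18 and 0.965 FPKM in HepKO livers. All HepKO values were below all Flox values, and the means differed 2.24-fold (log2 fold change -0.72, SE 0.18, limma adjusted p = 0.031). It missed the threshold once any library but Flox replicate 1 was dropped, at 0.091 for Flox replicate 2, 0.076 for Flox replicate 3, 0.059 for HepKO replicate 1, 0.088 for HepKO replicate 2 and 0.076 for HepKO replicate 3. Dhx58, a regulatory relative of RIG-I, had 1.29, 1.89 and 4.31 FPKM against 0.988, 1.14 and 1.09 FPKM, with no overlap but a wide Flox spread (-0.66, adjusted p = 0.16). The third RNA helicase of this family, Ifih1 or MDA5, had means of 2.51 and 2.78 FPKM in Flox and HepKO livers (0.11, adjusted p = 0.63).

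The PYHIN genes on chromosome 1, a family that includes cytosolic DNA sensors, did not share a direction. Ifi207, the most abundant, had 2.48, 1.24 and 2.64 FPKM in Flox and 3.41, 3.00 and 3.23 FPKM in HepKO livers (log2 fold change 0.47, adjusted p = 0.14). Ifi204 and Ifi211 had 0.32 and 0.21, and Ifi203 had -0.40, none of which passed. Reads may be shared among these related genes of a cluster, which was not tested, so single-gene levels are uncertain. The other 7 PYHIN members were under the abundance minimum. Among those 7, Ifi213 had 0.146, 0.141 and 0.455 FPKM in Flox and 0.0095, 0.018 and 0.056 FPKM in HepKO livers.

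Isg15 and the gene for its protease, Usp18, had changes of opposite sign, and neither passed. Isg15 encodes a ubiquitin-like protein that is conjugated to other proteins, and USP18 removes it and also dampens type I interferon receptor signalling. Isg15 (chromosome 4, 156199455 to 156200796) had 9.03, 15.2 and 29.9 FPKM in Flox and 21.9, 26.1 and 42.1 FPKM in HepKO livers. Groups overlapped, and the interval of the log2 fold change ran from -0.21 to 1.82 (0.81, adjusted p = 0.23). Usp18 had 1.35, 2.79 and 5.35 FPKM in Flox and 0.921, 1.02 and 1.51 FPKM in HepKO livers (-0.85, adjusted p = 0.13). It passed without Flox replicate 1 (adjusted p = 0.031). Within the Flox group both genes were lowest in replicate 1 and highest in replicate 3.

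Among effectors that act on viral RNA or replication, Oasl1 and Rsad2 rose. Of 20 members, 13 were tested, 2 rose, 0 fell and 11 did not pass (median log2 fold change -0.22). Among all tested genes 9.33% rose and 11.0% fell. Oasl1, a catalytically inactive oligoadenylate synthetase relative reported to restrain Irf7 translation, was the most abundant (ENSMUSG00000041827, chromosome 5, 114923240 to 114937915). It had 13.6, 15.6 and 13.3 FPKM in Flox and 25.1, 26.0 and 33.1 FPKM in HepKO livers. The groups were well apart, with means of 14.2 ± 1.24 and 28.1 ± 4.37 FPKM (SD, n = 3), a 1.98-fold rise (log2 fold change 0.93, SE 0.14, limma adjusted p = 0.0056). It passed without each library in turn, at adjusted p of 0.026 or less. Another gene, Gm13822, overlaps Oasl1 on the other strand.

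Rsad2, which encodes the antiviral enzyme viperin (chromosome 12, 26442746 to 26456452), also rose. Its values were 6.11, 4.32 and 4.79 FPKM in Flox and 7.07, 10.5 and 11.2 FPKM in HepKO livers, without overlap (1.89-fold, log2 fold change 0.79, SE 0.19, adjusted p = 0.031). Rsad2 did not pass with Flox replicate 2 or HepKO replicate 2 left out (adjusted p = 0.10 each), nor without Flox replicate 3 (0.093) or HepKO replicate 3 (0.075).

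None of the tested oligoadenylate synthetases proper passed. These enzymes make the second messenger that activates RNase L, but the GENCODE M21 annotation lists Oas1b as a polymorphic pseudogene. Oas1a had 1.69, 2.33 and 3.93 FPKM in Flox and 0.969, 1.21 and 1.17 FPKM in HepKO livers (log2 fold change -0.74, adjusted p = 0.0555), and it passed without Flox replicate 1 (0.028) or with a pseudocount of 0.1 (0.046). Oas1b, Oas1g and Oas2 had log2 fold changes of -0.54, -0.56 and -0.31 (adjusted p = 0.076, 0.13 and 0.21). Groups did not overlap for any of these 4 genes, and Flox replicate 3 was the highest library for each. Oasl2, the active relative of Oasl1, had a log2 fold change of -0.22 (adjusted p = 0.43). The Oas1 genes are related neighbours that may share reads, which was not tested, so their separate levels are uncertain.

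The Ifit genes, whose proteins bind viral RNA ends, and Mx2, of the dynamin-like GTPases, did not pass. The GENCODE M21 annotation lists Mx2 as a polymorphic pseudogene. Ifit3 had 2.26, 2.26 and 6.14 FPKM in Flox and 1.86, 2.24 and 2.67 FPKM in HepKO livers (log2 fold change -0.38, adjusted p = 0.42). Ifit1, Ifit2 and Ifit3b had 0.05, 0.16 and 0.13, with adjusted p of 0.60 or more. Mx2 had -0.35 (adjusted p = 0.37) and the exonuclease gene Isg20 had 0.33 (adjusted p = 0.17).

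Genes of membrane restriction factors, which block virus entry or hold back budding virus, moved apart from each other. Of 7 members, 5 were tested, 2 rose, 1 fell and 2 did not pass (median log2 fold change 0.20). Among all tested genes the shares were 9.33% higher and 11.0% lower. Ifitm6 (ENSMUSG00000059108, chromosome 7, 141015699 to 141017924) had the largest rise of the tested members. It had 0.580, 0.347 and 0.918 FPKM in Flox and 4.11, 4.15 and 3.32 FPKM in HepKO livers, 6.27-fold higher on average (log2 fold change 1.60, SE 0.16, limma adjusted p = 0.0015). No group overlap was present, and the call held without each library in turn at adjusted p of 0.010 or less. Its neighbour Ifitm1 had 6.80, 7.83 and 7.90 FPKM in Flox and 13.7, 13.8 and 10.9 FPKM in HepKO livers (1.71-fold, log2 fold change 0.69, SE 0.13, adjusted p = 0.012). The Ifitm1 call was lost only without HepKO replicate 2 (adjusted p = 0.053).

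Markers of immune and endothelial cells were counted in the same libraries. All 9 tested neutrophil markers rose (median log2 fold change 2.06), and their summed level over the 10 in the table ran from 10.6 to 20.5 FPKM in Flox and from 137 to 162 FPKM in HepKO livers. Ly6g was at 0 in every Flox library and in HepKO replicate 2, and Ngp was at 0 in Flox replicate 2. Of 9 tested monocyte and macrophage markers, 5 rose, 0 fell and 4 did not pass. The 12 markers of this list summed to 74.4 to 94.6 FPKM in Flox and 138 to 160 FPKM in HepKO livers. Of 9 Kupffer cell markers 1 rose (Marco) and 8 did not pass. Of 10 sinusoidal endothelial markers 4 rose, 1 fell (Kdr) and 5 did not pass. The part of these cells in the Ifitm6 and Ifitm1 results was not tested.

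Bst2 encodes tetherin, a surface protein that holds budding virions to the cell (ENSMUSG00000046718, chromosome 8, 71534255 to 71537456), and it fell. It had 63.2, 88.4 and 110 FPKM in Flox and 43.1, 43.7 and 50.4 FPKM in HepKO livers, with every HepKO library below every Flox library. The means of 87.3 ± 23.6 and 45.7 ± 4.07 FPKM (SD, n = 3) differed 1.91-fold (log2 fold change -0.89, SE 0.20, limma adjusted p = 0.027). Leaving out 1 library ended the Bst2 call in 4 of the 6 cases. Without Flox replicate 2 the adjusted p was 0.085, without Flox replicate 3 it was 0.062, without HepKO replicate 1 it was 0.076 and without HepKO replicate 2 it was 0.086. Bst2 also marks plasmacytoid dendritic cells, whose marker Siglech was at 0 in every library but Flox replicate 3 (0.033 FPKM). Of 7 listed markers of these cells that are not members, 2 were tested. Cox6a2 fell (log2 fold change -1.40, limma adjusted p = 0.028) and Ly6d rose (1.61, adjusted p = 0.018). The part of these cells in the Bst2 result was not tested. The abundant Ifitm3 had 332, 401 and 487 FPKM in Flox and 316, 391 and 342 FPKM in HepKO livers (-0.20, adjusted p = 0.41). Ifitm2 had 394, 313 and 317 FPKM in Flox and 365, 439 and 367 FPKM in HepKO livers (0.20, adjusted p = 0.35). Groups overlapped for both, and the related genes of the Ifitm cluster could share reads, which was not tested.

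The interferon-inducible GTPases, which attack the membranes of vacuoles that hold pathogens and include regulators of autophagy, held 3 of the genes that fell. Of 16 genes, 7 were tested, 3 fell, 0 rose and 4 did not pass (median log2 fold change -0.78). Of all tested genes, 11.0% fell and 9.33% rose, and 7 genes are too few to compare with these shares. Irgm2 (ENSMUSG00000069874, chromosome 11, 58199618 to 58222782) had 7.30, 11.2 and 16.3 FPKM in Flox and 3.57, 3.17 and 3.06 FPKM in HepKO livers. The HepKO values were tight and far below the Flox values, with means of 3.27 ± 0.270 and 11.6 ± 4.499 FPKM (SD, n = 3), a 3.54-fold fall (log2 fold change -1.50, SE 0.25, limma adjusted p = 0.0095). It passed without each library in turn, at adjusted p of 0.038 or less.

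Igtp, also called Irgm3 (ENSMUSG00000078853, chromosome 11, 58199556 to 58207591), had 7.78, 13.4 and 20.4 FPKM in Flox and 3.43, 3.71 and 4.48 FPKM in HepKO livers (3.58-fold, log2 fold change -1.52, SE 0.31, adjusted p = 0.017). With Flox replicate 2 dropped its adjusted p was 0.061, with HepKO replicate 1 dropped 0.058 and with HepKO replicate 2 dropped 0.060, so each of these ended the call. The annotated Irgm2 and Igtp loci overlap on the same strand, so the 2 falls may share reads. Ifi47, another GTPase of this family on chromosome 11, had 2.86, 4.45 and 6.66 FPKM in Flox and 1.80, 1.81 and 2.28 FPKM in HepKO livers (2.38-fold, log2 fold change -0.88, SE 0.24, adjusted p = 0.046). Its call was lost without Flox replicate 2 (0.12), Flox replicate 3 (0.085), HepKO replicate 1 (0.12), HepKO replicate 2 (0.12) or HepKO replicate 3 (0.072), with a pseudocount of 5 (0.059), after common-sum rescaling (0.053) and with no abundance filter (0.11).

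Irgm1, one of the regulators in the family, had 5.26, 8.66 and 12.5 FPKM in Flox and 4.25, 4.25 and 4.90 FPKM in HepKO livers. Its groups did not overlap, it did not pass (log2 fold change -0.78, adjusted p = 0.084), and it passed without Flox replicate 1 (0.015). Iigp1, the most abundant GTPase, was not shown to differ. It had 19.3, 28.5 and 42.5 FPKM in Flox and 41.1, 39.2 and 37.5 FPKM in HepKO livers (0.44, 95% interval -0.18 to 1.06, adjusted p = 0.27). The guanylate-binding proteins Gbp2 and Gbp3 had means of 1.25 FPKM or less in both groups and did not pass (0.16 and -0.34, adjusted p = 0.53 and 0.27). The other 9 Gbp genes were under the abundance minimum, with no library above 0.904 FPKM.

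Interferon response elements were searched in the 250 bases before each RefSeq start (GRCm38.p6), to show which members carry the letters that the pathway's factors are known to bind. A start was matched for 61 of the 83 members by symbol, 73 starts in all. For 59 of the 73 starts the bases just after the start lay in a GENCODE M21 transcript, and for the Irgm2 and Bst2 starts used below they did not. The response element core, a pair of GAAA with any 2 bases (NN) between, on either strand, was in 43.8% of member starts and in 2.98% of all 32851 starts. The gamma-activated site, TTC and GAA with any 3 bases (NNN) between, which reads alike on both strands, was in 19.2% of member starts and 7.02% of all starts. Matches of both kinds can overlap. Among members with a start, the core was found in 3 of 6 that fell (Irgm2, Igtp and Bst2) and 1 of 4 that rose (Rsad2). The core was also in 15 of 31 that did not pass and 12 of 20 that were not tested. Ddx58, Ifi35, Ifi47, Oasl1, Ifitm1 and Ifitm6 did not hold it in this window, and Ifitm6 held a gamma-activated site. The 7 windows of 60 bases below are chosen to show the layout in called members and in 3 members that did not pass. They run 5′ to 3′ on the gene's strand, with both motifs in capitals.
Irgm2: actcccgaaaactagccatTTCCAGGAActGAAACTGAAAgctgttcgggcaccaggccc
Igtp: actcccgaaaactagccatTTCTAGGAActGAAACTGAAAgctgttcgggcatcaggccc
Bst2: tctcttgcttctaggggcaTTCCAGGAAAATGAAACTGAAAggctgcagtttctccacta
Rsad2: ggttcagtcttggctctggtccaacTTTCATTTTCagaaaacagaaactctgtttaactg
Irgm1: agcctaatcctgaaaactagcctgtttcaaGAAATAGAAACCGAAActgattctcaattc
Oas1a: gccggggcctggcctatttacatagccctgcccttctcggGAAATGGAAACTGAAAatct
Isg15: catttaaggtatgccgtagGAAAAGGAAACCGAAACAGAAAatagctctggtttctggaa

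The windows lie at chr11:58214883-58214942 for Irgm2 (plus strand), chr11:58199492-58199551 for Igtp (plus strand), chr8:71537568-71537627 for Bst2 (minus strand), chr12:26456538-26456597 for Rsad2 (minus strand), chr11:48871421-48871480 for Irgm1 (minus strand), chr5:120907526-120907585 for Oas1a (minus strand) and chr4:156200856-156200915 for Isg15 (minus strand) in GRCm38.p6. The Irgm2 and Igtp windows differed at 2 of 60 bases, and in each the gamma-activated site began 11 bases before the response element, with 2 bases between. In Bst2 the gamma-activated site overlapped the first of 2 overlapping response elements. Rsad2 carried the element on the opposite strand, and Irgm1, Oas1a and Isg15 carried 2, 2 and 3 overlapping copies. Oas1a also held a gamma-activated site further upstream, outside its window. Both motifs were in 7 members, of which Irgm2, Igtp and Bst2 fell, Irf2 and Oas1a did not pass, and Gbp5 and Gbp7 were not tested. A match is a description of the letters and not a measured binding site. Ifi27 and Ifi27l2b had no start in the table.

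**Figure D2:**
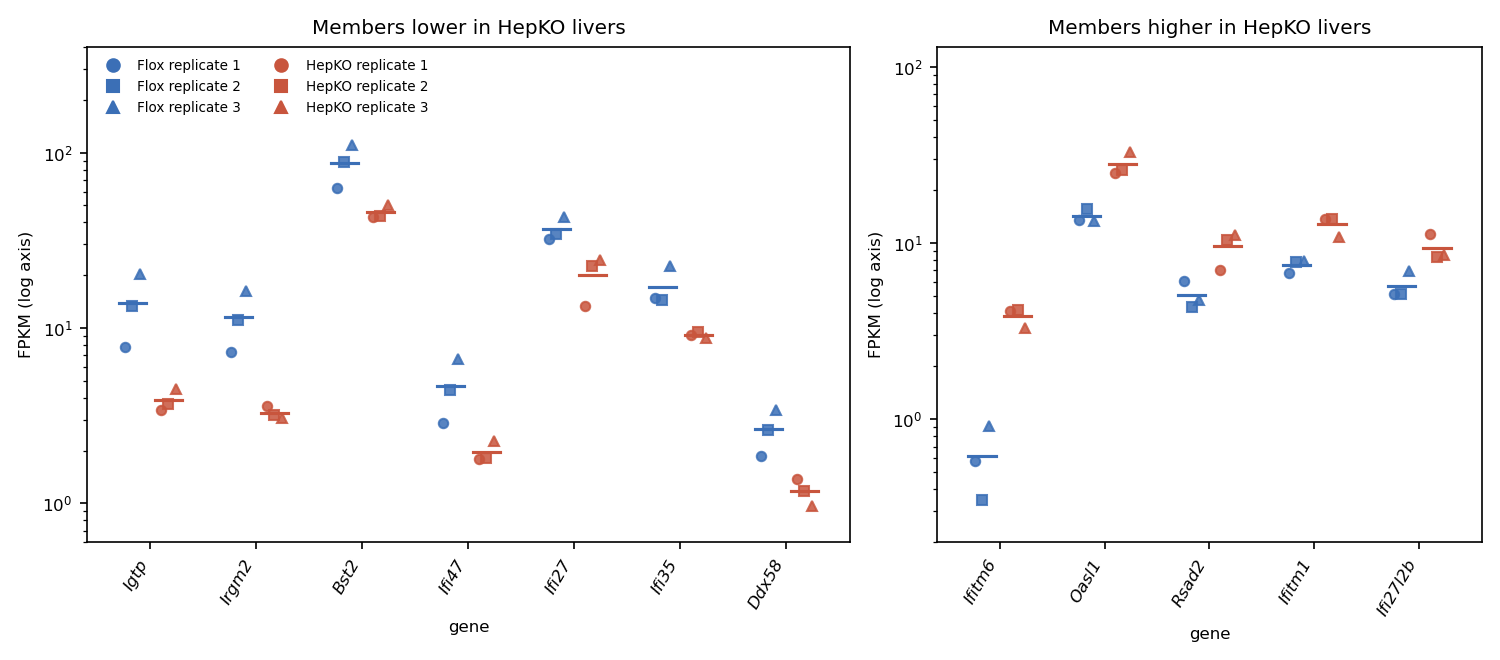
FPKM (y axis, log scale) of 7 of the members that fell and the 5 that rose (x axis), with 1 point per library and bars at the group means. HepKO libraries lie below all Flox libraries in the left panel and above them in the right panel, and Flox replicate 3 is the highest Flox library for all 7 in the left panel.

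Of the remaining Ifi genes, 7 in all and 5 tested, 2 fell, 1 rose and 2 did not pass (median log2 fold change -0.82). Among all tested genes 11.0% fell and 9.33% rose. Ifi35, which encodes a leucine-zipper protein that partners NMI, had 14.8, 14.4 and 22.4 FPKM in Flox and 9.10, 9.44 and 8.75 FPKM in HepKO livers (1.89-fold, log2 fold change -0.82, SE 0.17, limma adjusted p = 0.020). Dropping any HepKO library ended the Ifi35 call, at an adjusted p of 0.058, 0.062 and 0.052 for replicates 1, 2 and 3. Ifi27, which encodes a small hydrophobic membrane protein, had 32.3, 34.5 and 42.7 FPKM in Flox and 13.3, 22.6 and 24.5 FPKM in HepKO livers (1.82-fold, log2 fold change -0.86, SE 0.24, adjusted p = 0.045). HepKO replicate 1 was lowest. Leaving out Flox replicate 1 (0.070), Flox replicate 2 (0.10), Flox replicate 3 (0.13), HepKO replicate 1 (0.051) or HepKO replicate 2 (0.081) ended the call.

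Its 2 relatives in the same chromosome 12 cluster differed in sign. Ifi27l2b rose, from 5.14, 5.13 and 6.97 FPKM in Flox to 11.3, 8.40 and 8.60 FPKM in HepKO livers (1.64-fold, log2 fold change 0.63, SE 0.16, limma adjusted p = 0.037). The Ifi27l2b call ended with an adjusted p of 0.091 when Flox replicate 1 was left out and likewise for Flox replicate 2 (0.11), HepKO replicate 1 (0.089), HepKO replicate 2 (0.071) or HepKO replicate 3 (0.058). Ifi27l2a, also known as Isg12, had 2.92, 6.17 and 14.2 FPKM in Flox against 2.22, 1.72 and 1.296 FPKM in HepKO livers, a wide Flox spread. Its groups did not overlap, but its log2 fold change of -1.47 had limits of -2.55 and -0.38 (95%) and missed the threshold (adjusted p = 0.065). It passed without Flox replicate 1 (0.018). Ifi30, a lysosomal thiol reductase of antigen processing, had means of 11.1 and 14.4 FPKM with no overlap (0.35, adjusted p = 0.095). It passed after median-ratio rescaling (0.040) or common-sum rescaling (0.046).

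The symbol rule also took in 6 genes that are not interferon-induced effectors by function, of which 4 were tested and none passed. They are the corepressor genes Irf2bp1, Irf2bp2 and Irf2bpl, the exonuclease relative Isg20l2, the pseudogene Ifi203-ps and the antisense transcript Dhx58os. Irf2bp2 had 14.6, 6.46 and 8.11 FPKM in Flox and 13.6, 16.1 and 14.7 FPKM in HepKO livers (log2 fold change 0.63, adjusted p = 0.14), and it passed without Flox replicate 1 (0.012). Irf2bp1 had means of 11.4 and 9.30 FPKM with no overlap (-0.27, adjusted p = 0.10).

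The 30 members under the abundance minimum were not tested in the main comparison, and none of their libraries exceeded 1.07 FPKM. A value of 0 in at least 1 library was listed for 11 of them. In 6 of the 30 all HepKO libraries lay below all Flox libraries, and in 0 above. Of the 13761 genes under the minimum that were above 0 in some library, 4.9% lay wholly below and 7.68% wholly above. These 6 were Gbp9, Ifi44, Ifi213, Ifi206, Ifi203-ps and Dhx58os. Dhx58os overlaps the member Dhx58 on the opposite strand, so its level may include reads of that gene. Ifi44 had 0.226, 0.383 and 1.07 FPKM in Flox and 0.1695, 0.128 and 0.185 FPKM in HepKO livers. Ifi203-ps had 0.342, 0.366 and 0.846 FPKM in Flox and 0.025, 0.098 and 0.065 FPKM in HepKO livers. At such levels a fold rests on few reads.

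The members varied more among the Flox libraries than among the HepKO libraries. On the log2(FPKM + 1) scale, the median range over 3 libraries was 0.66 in Flox and 0.27 in HepKO for the 53 tested members, against 0.28 and 0.30 for all tested genes. The Flox range was the larger for 42 of 53 members (79.2%), against 47.7% of all tested genes. Flox replicate 3 was the highest Flox library for 44 of the 53 (83.0%, against 39.4% of all tested genes), and Flox replicate 1 the lowest for 37 (69.8%, against 40.7%). In the HepKO group no library stood out in this way, with 15, 19 and 19 members highest in replicates 1, 2 and 3. Those were 28.3%, 35.8% and 35.8% of members, against 23.3%, 28.7% and 48.1% of all tested genes. Among the 8 members that fell, Flox replicate 3 exceeded Flox replicate 1 by 1.32-fold to 2.62-fold, while the highest HepKO library exceeded the lowest by 1.08-fold to 1.84-fold. These are descriptions without a test.

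**Figure D3:**
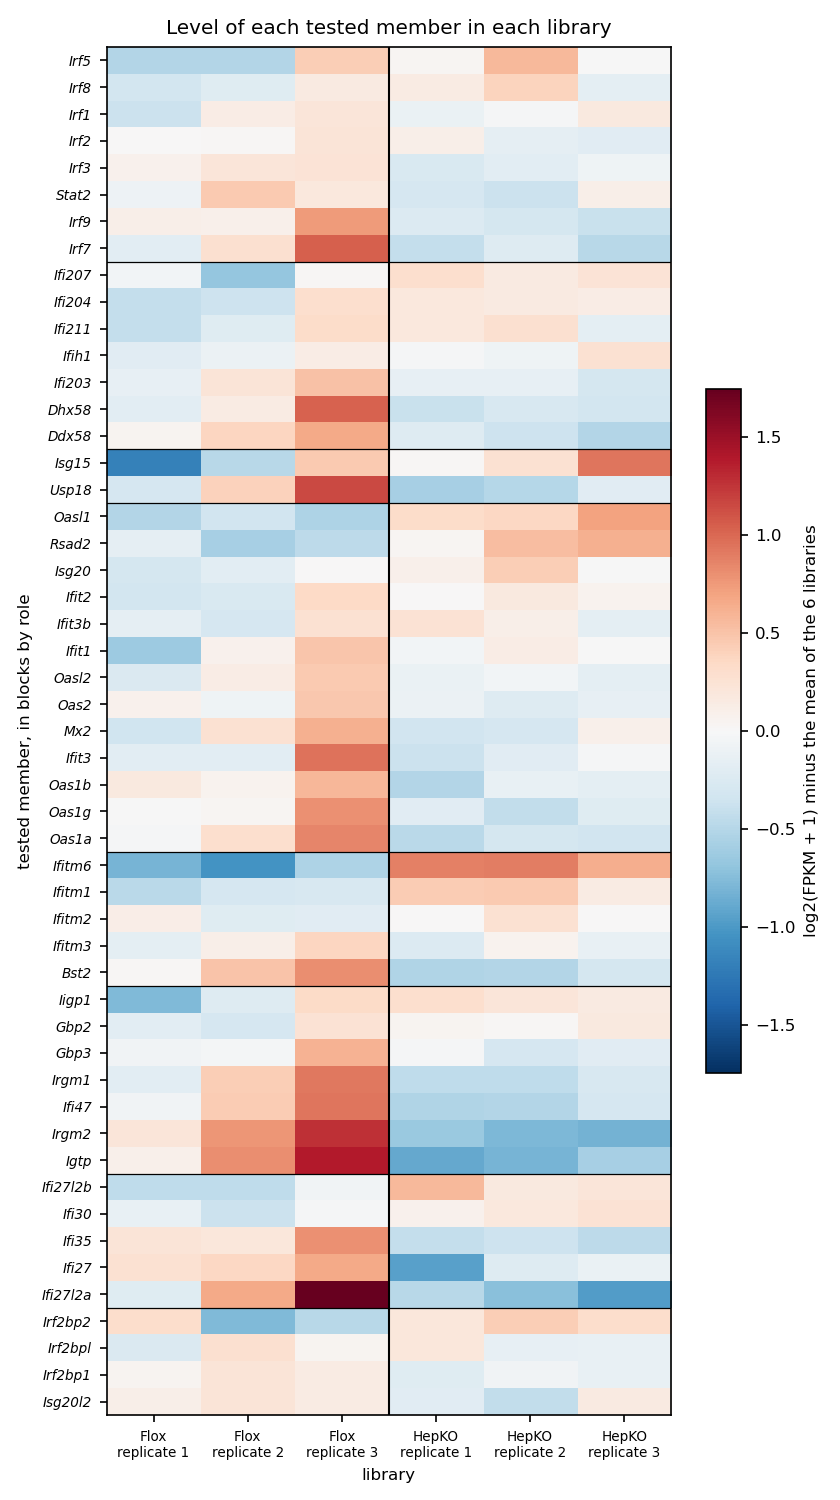
Level of each of 51 of the 53 tested members (rows, in blocks by role) in each library (columns), as log2(FPKM + 1) minus the member's mean over the 6 libraries, red above and blue below. The Flox replicate 3 column is the highest Flox value in 43 rows, and the HepKO columns resemble each other more closely, with a median range of 0.27.

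Upstream of these genes, interferon transcripts were near or at 0. Of 21 interferon ligand genes looked for, 5 had a row in the table, none was tested, and the highest value in any library was 0.292 FPKM. Ifng was listed at 0 in 5 of the libraries and at 0.025 FPKM in HepKO replicate 2. The 16 T and NK cell markers, whose cells are known sources of interferon gamma, summed to 1.00 to 3.54 FPKM in Flox and 1.54 to 2.74 FPKM in HepKO livers. Of these 16, 14 were at 0 in at least 1 library. Of 7 plasmacytoid dendritic cell markers, not counting the members Bst2, Irf7 and Irf8, 2 were tested, and 1 rose (Ly6d) and 1 fell (Cox6a2).

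Receptors and kinases held 2 higher genes and 0 lower among 8 tested (median log2 fold change 0.26). The type I receptor genes Ifnar1 and Ifnar2 had means of 4.41 and 13.8 FPKM in Flox and 4.73 and 14.9 FPKM in HepKO livers (log2 fold change 0.08 and 0.10, adjusted p = 0.69 and 0.56). The interferon gamma receptor genes Ifngr1 and Ifngr2 had 0.39 and 0.31 (adjusted p = 0.46 and 0.20). Jak1 and Tyk2 had 0.22 and -0.29 (adjusted p = 0.17 and 0.13). Jak2, the second kinase of the gamma receptor, rose from 3.19, 3.22 and 3.41 to 4.47, 5.08 and 4.80 FPKM (0.44, adjusted p = 0.022). That was lost without Flox replicate 1 (0.0502), Flox replicate 2 (0.076), Flox replicate 3 (0.060) or HepKO replicate 2 (0.085). Il10rb, a chain shared by interleukin 10 and interferon lambda receptors, rose from 1.21, 1.39 and 1.91 to 3.55, 2.59 and 2.36 FPKM (0.61, adjusted p = 0.041). It was lost without Flox replicate 1 (0.099), Flox replicate 2 (0.12), HepKO replicate 1 (0.10) or HepKO replicate 2 (0.091).

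Negative regulators held 2 higher and 1 lower among 14 tested (median 0.13). Socs3, a feedback inhibitor of JAK kinases induced mainly through STAT3, rose from 13.02, 11.3 and 12.7 FPKM in Flox to 36.0, 38.2 and 42.2 FPKM in HepKO livers (3.15-fold, log2 fold change 1.58, SE 0.11, limma adjusted p = 0.00057). Socs1, a related inhibitor of JAK kinases, was under the abundance minimum, with 0.2996, 0.126 and 0.267 FPKM against 0.468, 0.580 and 0.490 FPKM. Ptpn2, a phosphatase that acts on JAK1, rose 1.55-fold (0.57, adjusted p = 0.031), and its call was lost without Flox replicate 2 (0.072), Flox replicate 3 (0.067), HepKO replicate 1 (0.059), HepKO replicate 2 (0.10) or HepKO replicate 3 (0.068). Trim24, a corepressor, fell 1.69-fold (-0.58, adjusted p = 0.041), lost after common-sum rescaling (0.055) and without Flox replicate 2 (0.12), Flox replicate 3 (0.12), HepKO replicate 1 (0.11), HepKO replicate 2 (0.11) or HepKO replicate 3 (0.064).

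Among 14 tested sensors and adaptors outside the symbol rule, 1 rose and 1 fell (median -0.09). Mavs, the mitochondrial adaptor of RIG-I and MDA5, fell from 24.9, 23.3 and 19.9 FPKM to 14.1, 13.8 and 14.1 FPKM (1.62-fold, log2 fold change -0.65, SE 0.11, adjusted p = 0.0094). Ikbke, a kinase of IRF3 and IRF7, rose from 2.09, 1.51 and 1.68 FPKM to 3.21, 3.20 and 3.16 FPKM (1.81-fold, 0.61, SE 0.11, adjusted p = 0.012). Neither gene's groups overlapped.

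Interferon-inducible genes that the symbol rule does not reach were split as well. Of 46 tested, 5 rose, 8 fell and 33 did not pass (median log2 fold change -0.24), beside 9.33% higher and 11.0% lower of all tested genes. Those that fell were Parp9, Parp14, Dtx3l, Trim34a, Trim12c, Phf11d, Lgals9 and Xdh, by 1.62-fold (Xdh) to 4.23-fold (Phf11d). Over all pathway lists together, 12 genes fell in the main fit, 3 without Flox replicate 2 and 2 without HepKO replicate 2. Within the present list, the 4 largest changes on the log2(FPKM + 1) scale were rises. Plscr1, a phospholipid scramblase, rose from 8.32, 10.4 and 13.7 to 29.2, 29.5 and 35.6 FPKM (2.91-fold, log2 fold change 1.48, SE 0.18, limma adjusted p = 0.0031). Cd274, which encodes the checkpoint ligand PD-L1, rose from 0.400, 0.439 and 0.551 to 2.25, 2.18 and 1.86 FPKM (4.53-fold, 1.08, SE 0.11, adjusted p = 0.0015). Slfn2 and Slfn1, Schlafen genes of immune cells, rose 2.46-fold and 3.13-fold (adjusted p = 0.012 and 0.017). The Slfn1 call was lost without Flox replicate 2 (0.056), HepKO replicate 1 (0.053) or HepKO replicate 2 (0.051).

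Of 12 tested chemokine and antigen-processing genes known as targets of interferon gamma, 1 rose and 2 fell (median -0.16). Cxcl10, which attracts CXCR3-bearing lymphocytes, had 3.75, 3.95 and 3.52 FPKM in Flox and 57.4, 41.8 and 105 FPKM in HepKO livers (adjusted p = 0.0010), while Cxcl9 and Cxcl11 did not exceed 0.423 FPKM in any library. Psmb10, an immunoproteasome subunit, fell 2.04-fold (log2 fold change -0.91, adjusted p = 0.030). Its call was lost without Flox replicate 2 (0.081), Flox replicate 3 (0.087), HepKO replicate 1 (0.066) or HepKO replicate 2 (0.079). The peptide trimmer Erap1 fell 1.60-fold (-0.54, adjusted p = 0.046), lost after common-sum rescaling (0.061) and without Flox replicate 2 (0.13), Flox replicate 3 (0.13), HepKO replicate 1 (0.12), HepKO replicate 2 (0.13) or HepKO replicate 3 (0.064). Over these 6 lists, 11 of 94 tested genes rose and 12 fell, beside 9.33% and 11.0% of all tested genes. With no abundance filter, where more genes share the adjustment, the calls of Il10rb (adjusted p = 0.099), Trim24 (0.090), Ptpn2 (0.064), Slfn1 (0.052), Psmb10 (0.073) and Erap1 (0.095) ended.

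**Figure D4:**
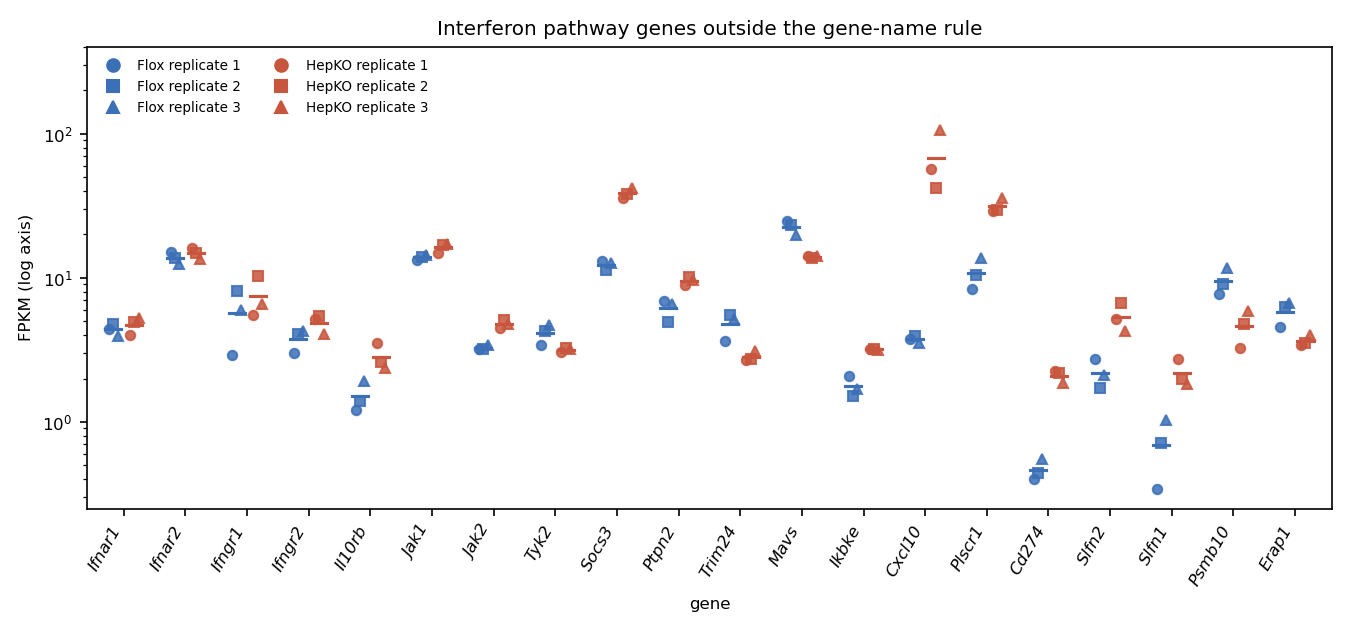
FPKM (y axis, log scale) of receptors, kinases, regulators, adaptors and other inducible genes of the pathway (x axis), with 1 point per library and bars at the group means. Socs3, Plscr1, Cd274 and Cxcl10 have HepKO points above all Flox points, Mavs has them below, and Ifnar1 and Ifnar2 overlap.

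The authors' own statistics leaned further toward lower members than the 5 higher and 8 lower called here. In the authors' deposited table, 22 of the 83 members had a q-value below 0.05, 4 higher and 18 lower in HepKO livers. That was 26.5% of members, against 8.97% of all genes in the authors' deposited table, many of which are not expressed in liver. The split by direction among all genes with such a q-value was not counted. Whether the lean is particular to the members is therefore unknown. It includes 12 of the 13 members called here, all but Ifi27l2b. Members with a q-value below 0.05 only in the authors' deposited table were Usp18, Oas1a, Irgm1, Ifi27l2a, Dhx58, Irf7, Irf9, Ifi203-ps, Ifi44 and Ifi213, all lower. No source used here states the test behind those q-values.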

How the data were processed

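The deposited table holds the FPKM of 28476 genes in 6 libraries, which the authors computed from the reads, per the file headers. StringTie 1.3.4d, HISAT2 2.0.4, cutadapt 1.9, edgeR and DESeq2 are listed, with no role for any, per the submitters' processing notes. Poly(A) RNA was made into strand-marked libraries, per the labels' protocols, but no source used here says whether strand was used in quantification. The deposited p-values and q-values are the authors' own. No genome build is named in these sources. Of the gene IDs, 28396 are in GENCODE M21 (GRCm38) and 25582 have the same coordinates there, as do 73 of the 83 members.

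Because FPKM hold no read numbers, depth is unknown and count models were not used. Genes averaging 0.5 FPKM or more (12712) were tested on log2(FPKM + 1) with limma 3.58.1 (R 4.3.3), genotype as the only term, with the variance trend, two-sided, with Benjamini-Hochberg adjustment over all of them at 0.05. This scale understates the change of low genes. A fold divides the larger group mean by the smaller. An exact permutation test was run for Nedd4 (scipy 1.17.1). The fit was tested on simulated data. Members, lists and the rule for genes named were chosen with earlier results of these data known. Genes named are Nedd4, members that passed or did not overlap, the 2 most abundant of each role, tested transcription factors, a fixed set of signalling genes, and up to 4 called genes of each other list with the largest change. Results for 2 members are not reported here. Other genes named were chosen after their values were seen. Promoter sequences are RefSeq's (GRCm38.p6). Alternatives covered the pseudocount (0.1 and 5), the filter, 2 rescalings, limma's options, the threshold, single libraries left out and a block by replicate number.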

Additional observations from a re-analysis of the deposited data

How the results depend on the processing

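Each of the 13 called members kept its sign in all 15 alternative fits, 5 of them kept their call in the 9 that use every library, and 3 (Irgm2, Oasl1 and Ifitm6) in the 6 that leave out 1 library. Over 883 refits of 59 named genes, 773 kept sign and side of the threshold, 95 lost the call, 12 gained it and 3 changed sign. The sign changes came from leaving out 1 library and concerned genes that never passed, with log2 fold changes of -0.16 to 0.13 for Irf1 and -0.00074 to 0.20 for Ifih1. Without 1 library, 2 to 5 members were higher and 1 to 13 lower, 6 to 9 genes of the other pathway lists were higher and 2 to 12 lower, and 685 to 1022 of all genes were higher and 616 to 1302 lower.

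With no filter (26473 genes), 3 members were higher and 3 lower, 5 pathway genes were lower and 899 of all genes were lower; more genes shared the adjustment. At an adjusted p threshold of 0.1, 14 members and 2174 of all genes were lower. At 0.01, 2 members were higher and 1 lower, 4 pathway genes were higher and 2 lower, and 508 of all genes were higher and 431 lower. Same-numbered libraries did not deviate together (r = 0.0029, 0.0021 and -0.025 across 12712 genes, which are not independent). No library correlated best with the library of its own number in the other group, so the numbers pair nothing known. With the replicate block, 4 members were higher and 6 lower, 6 pathway genes were higher and 6 lower, and 776 of all genes were higher and 775 lower; fewer residual degrees of freedom remain. The block ended the calls of Rsad2, Ifi35, Ifi27l2b, Ddx58, Il10rb, Jak2, Trim24, Ptpn2, Slfn1 and Erap1 (adjusted p of 0.052 for Ifi35 to 0.10 for Il10rb), and Isg15 passed with it (0.0499). Median-ratio and common-sum rescaling gave 6 higher members and 8 or 7 lower. Depth is unknown, so members near 0 could not be compared.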
